A study of Mus musculus with 10 samples.

Results

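The genes that encode the transcription factors at the core of the pluripotency network were followed in mouse embryonic stem cells (ESC) with altered DIDO3: Pou5f1 (which encodes OCT4), Sox2, Nanog, Esrrb, Tfcp2l1, Zfp42 (REX1), Tbx3, Nr0b1 (DAX1) and Prdm14. All 9 were found by annotation, at 11 of 28730 measured sites. RNA was sequenced from C57BL/6 ESC of 3 genotypes with 3 libraries each: wild type (WT), DIDO3ΔE16 (labelled DIDO3_exon16) and DIDO3ΔCT+HADIDO3 (labelled DIDO3_dCT+HADIDO3). DIDO3ΔE16 lines lack exon 16, the exon specific to DIDO3, after deletion of a floxed allele by a Cre driven from the Sox2 promoter in mice. DIDO3ΔCT+HADIDO3 cells carry a deletion of the DIDO3 C terminus, which affects the same exon 16. They also express an added, HA-tagged DIDO3, so they differ from WT in both respects. All cells were grown in fetal calf serum and LIF on mitomycin C-treated fibroblasts or on gelatin. The number of lines or clones per genotype is not given in the sources used here, nor are the libraries said to come from separate cultures, so p-values measure only the spread between these libraries, which may be technical.

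OCT4 and SOX2 bind DNA together and keep stem cells pluripotent, and their dosage has to stay within narrow limits. NANOG, ESRRB, TFCP2L1, TBX3 and PRDM14 sustain self-renewal in naive ESC, where LIF acts through STAT3 on TFCP2L1, and they fluctuate or disappear as cells leave this state. REX1 is a classical marker of naive ESC that is lost early during differentiation, and DAX1 is a nuclear receptor co-repressor that binds OCT4.

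What was measured at each gene was the RNA of its end. Each feature is a 3′UTR with 2 kb of downstream sequence added, in TPM (a level normalised for feature length and for the total of its library). Features with identical coordinates were added up to a site, and genes were assigned from the annotation of mm10. All 11 member sites had a TPM above 0 in all 9 libraries, so none was lost to the filter on low values. Because the added 2 kb counts towards the length, a site with a short 3′UTR has a lower TPM than its mRNA has, and a level cannot be separated from reading through the annotated end. In bulk RNA, fewer cells that express a gene and less RNA per cell cannot be told apart.

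The forward-strand sites, by mm10 coordinates, were Pou5f1 at chr17:35510552-35512777, Sox2 at chr3:34651376-34654460, Nanog at chr6:122713556-122716633, Tbx3 at chr5:119683093-119686724 and Nr0b1 at chrX:86195596-86197946. On the reverse strand lie Zfp42 at chr8:43293067-43295595 and Prdm14 at chr1:13111428-13114259. Esrrb and Tfcp2l1, both on the forward strand, have 2 sites each. Esrrb ends at an upstream site, chr12:86514568-86517522, and at a downstream site, chr12:86519066-86523628, which are 1543 bases apart. Tfcp2l1 ends at an upstream site, chr1:118637646-118639766, and 37668 bases further at a downstream site, chr1:118677435-118687168. Annotated 3′UTR makes up 226 bases of the Pou5f1 site, 351 of Nr0b1, 529 of Zfp42, 1078 of Nanog, 1085 of Sox2 and 7734 of the downstream Tfcp2l1 site.

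The ends could be compared by sequence at some of the sites. Of the 11 sites, 7 have a 3′UTR that stops exactly where an annotated transcript stops, and the polyadenylation signal AATAAA stands in the last 30 bases of 5 of them (Nanog, downstream Esrrb, downstream Tfcp2l1, Zfp42 and Tbx3), starting 21 to 25 bases before the end. The other two, upstream Esrrb and upstream Tfcp2l1, hold neither AATAAA nor ATTAAA there, and Pou5f1, Sox2, Nr0b1 and Prdm14 were not examined. Over the 13473 sites of the series with such a match, 45.6% hold AATAAA and 42.8% hold neither. At both upstream sites the added 2000 bases lie inside the same gene, whereas at the other member sites at most 4 of them do.

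Windows of the promoters that hold a motif of the pluripotency factors are shown because the members regulate one another. The promoters run from 250 bases before to 50 bases after each start in RefSeq (GRCm38.p6), and those of 7 of the 9 genes were used. The promoters of Tbx3 and Prdm14 were not analysed here. Capitals mark the motif: a SOX core (ACAATG or ACAAAG) in Nanog, Pou5f1 (an alternative start), Sox2 and Nr0b1, the octamer ATGCAAAT read on the reverse strand in Zfp42, and the KLF core GGGTGTGG, also read on the reverse strand, in Zfp42.
Nanog, chr6:122707410-122707439, forward strand: ttcttttgcattACAATGtccatggtggac
Pou5f1, chr17:35508637-35508666, forward strand: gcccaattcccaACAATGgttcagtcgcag
Sox2, chr3:34649777-34649806, forward strand: ggggggggggatACAAAGgttccccagcgg
Nr0b1, chrX:86191662-86191691, forward strand: acacattcaagcACAAAGgcgcgtccccct
Zfp42 octamer, chr8:43307177-43307206, reverse strand: tctgaagaggcATTTGCATaactgagcaag
Zfp42 KLF core, chr8:43307066-43307095, reverse strand: cacatccccgcCCACACCCaccttgagcgc
The octamer occurs in 1.74% of all 32851 promoters on either strand, the KLF core in 3.56%, ACAATG in 12.6% and ACAAAG in 18.7%. Zfp42 was the only member with the octamer or the KLF core, and no member promoter held the ESRRB core TCAAGGTCA, which occurs in 0.423% of promoters. ACAATG on the reverse strand was also found in 1 Esrrb promoter, and the TATA box TATAAA (13.6% of promoters, either strand) in those of Tfcp2l1 and Nr0b1. A match is a description of the letters and no evidence of binding.

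Of 4 samples labelled WT, replicates 2 and 3 bear the same library number and entered as 1 library (WT 2-3). Bases in features ranged from 1.46 to 2.61 Gb per library, and 1 TPM equalled an average depth of 0.434 to 0.775 reads at each base. The library names in the labels, read here as flow cell names, begin with C7A in WT 1 and WT 4 and with C79 in the other 7 libraries. This beginning is used as flow cell family, a grouping that the labels do not state. By it, only WT 2-3 shares the family of the mutants, so a fit with flow cell family compares the mutants with WT 2-3 alone. The most distal site of Dido1, the targeted gene, had 13.7 to 17.9 TPM in WT and 0.307 to 0.546 in DIDO3ΔE16. It had 10.9 to 12.1 TPM in DIDO3ΔCT+HADIDO3, so DIDO3ΔE16 was lowest. All 9 ESC markers were above 0 in every library. Markers of other cells differed with genotype. The summed TPM of 12 feeder fibroblast markers was 67.3 to 72.5 in WT, 138 to 146 in DIDO3ΔE16 and 61.8 to 67.8 in DIDO3ΔCT+HADIDO3. Thy1 carried most of the last value: without it the sums were 49.0 to 52.8, 106 to 114 and 9.66 to 12.8. Dcn and Lum stayed under 1 TPM in all libraries. For 7 primitive endoderm markers the sum was 73.4 to 98.6 in WT, 29.1 to 39.7 in DIDO3ΔE16 and 25.6 to 29.8 in DIDO3ΔCT+HADIDO3. For 5 trophoblast markers, of which Elf5 stayed under 1 TPM, the median sums were 34.6, 64.7 and 25.8, with no overlap between genotypes. Eomes carried most of this sum, with means of 29.9, 57.4 and 19.7 TPM in the same order. Hand1 was instead highest in DIDO3ΔCT+HADIDO3, with means of 2.99, 2.71 and 5.03 TPM. Cdx2 and Gata3, highest in DIDO3ΔE16, had means of at most 1.36 and 2.72 TPM in any genotype. The part of all these markers of other cells in the values of the members was not tested.

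Sites listed once in the files and sites listed several times, for several transcripts with the same end, are reported apart. In the whole series, among sites that reach 10 TPM and overlap no other on their strand, 21 of 6222 listed once (0.338%) differed over 10-fold within a genotype, against 812 of 4179 listed 2 or more times (19.4%). Listed once were Sox2, Nr0b1, Prdm14, both Tfcp2l1 sites and upstream Esrrb. Their highest library exceeded the lowest of the same genotype by at most 1.75-fold (upstream Tfcp2l1) and by at most 1.21-fold at the other 5. Listed repeatedly were Pou5f1 (2 times), Zfp42, Tbx3 and downstream Esrrb (3 times each) and Nanog (4 times). Within a genotype they varied up to 2.88-fold at Pou5f1, 22.4-fold at Tbx3, 218-fold at Nanog and 223-fold at downstream Esrrb. Zfp42 was stable, with at most 1.09-fold.

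**Figure D1:**
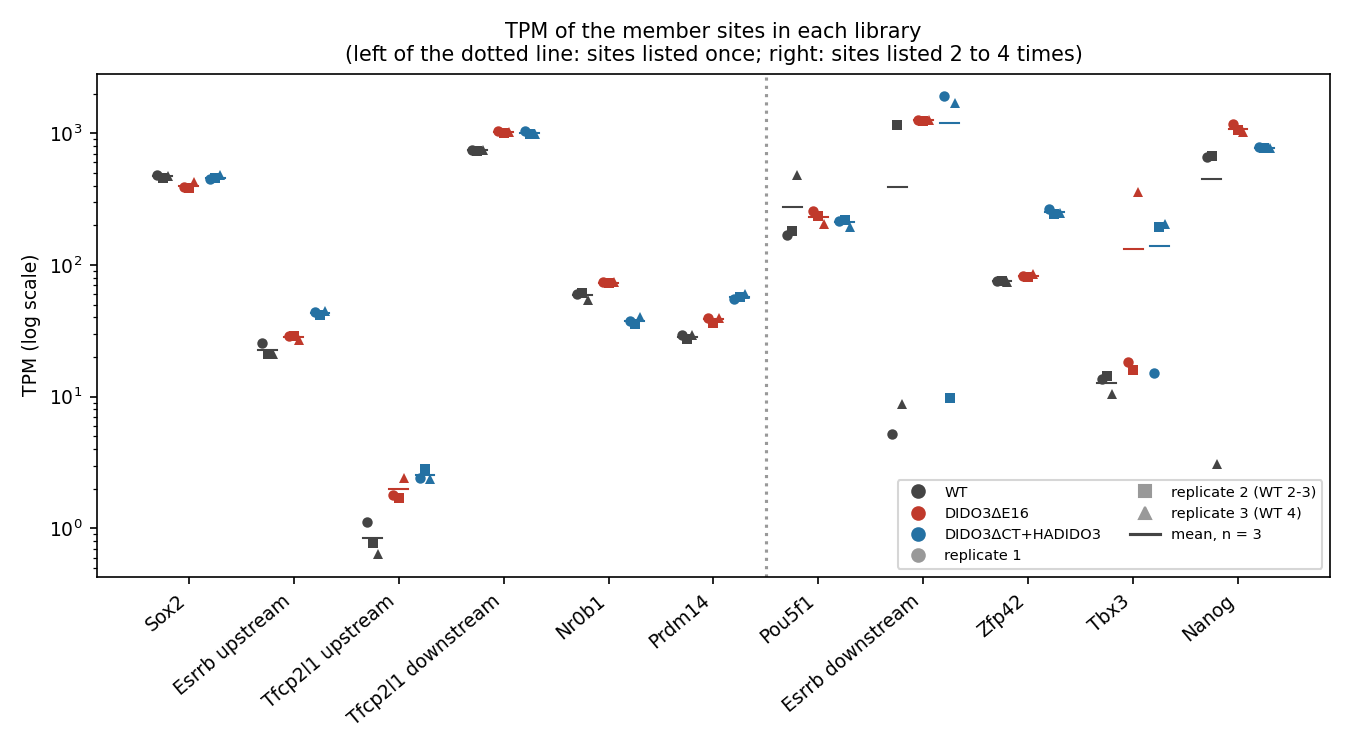
TPM (log scale) of the 11 member sites in each of 9 libraries, coloured by genotype with a bar at the mean of 3 libraries. Sites listed once keep their libraries together, whereas Nanog, downstream Esrrb and Tbx3 hold libraries of 1 genotype that lie more than 10-fold apart.

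For each comparison the libraries were scaled, and log2(TPM + 0.1) was fitted with limma over all sites above 0 in each of its libraries. Calls required an absolute log2 fold change of 0.7 or more and a Benjamini-Hochberg adjusted p under 0.05 over all of these sites. The smallest p of an exact permutation test of a single value is 0.1 with 3 libraries per genotype. Between DIDO3ΔE16 and WT, 1 of 11 member sites was called, higher in DIDO3ΔE16 (upstream Tfcp2l1), where 10.2% of all 21063 tested sites were called higher and 4.94% lower. The share of higher among all called sites was 67.4%, and 55.0% after quantile normalization. Between DIDO3ΔCT+HADIDO3 and WT, 4 member sites were called higher (Zfp42, Prdm14, upstream Esrrb and upstream Tfcp2l1) and 1 lower (Nr0b1), against 10.1% called higher and 7.24% called lower of 20879 sites. When DIDO3ΔE16 was compared directly with DIDO3ΔCT+HADIDO3, Nr0b1 was called higher and Zfp42 lower in DIDO3ΔE16, among 21172 sites of which 13.9% were called higher and 13.4% lower. The comparisons with WT share the WT libraries. Libraries of DIDO3ΔE16 and WT did not overlap at 10 of 11 member sites and at 49.4% of all tested sites. For DIDO3ΔCT+HADIDO3 and WT this held for 8 of 11 and 53.5%, and between the mutants for 6 of 11 and 61.6%. Lack of overlap alone therefore does not set a site apart. For the 6 member sites listed once the median log2 fold change relative to WT was 0.32 for DIDO3ΔE16 and 0.59 for DIDO3ΔCT+HADIDO3, beside medians of −0.01 over all sites in both comparisons.

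**Figure D2:**
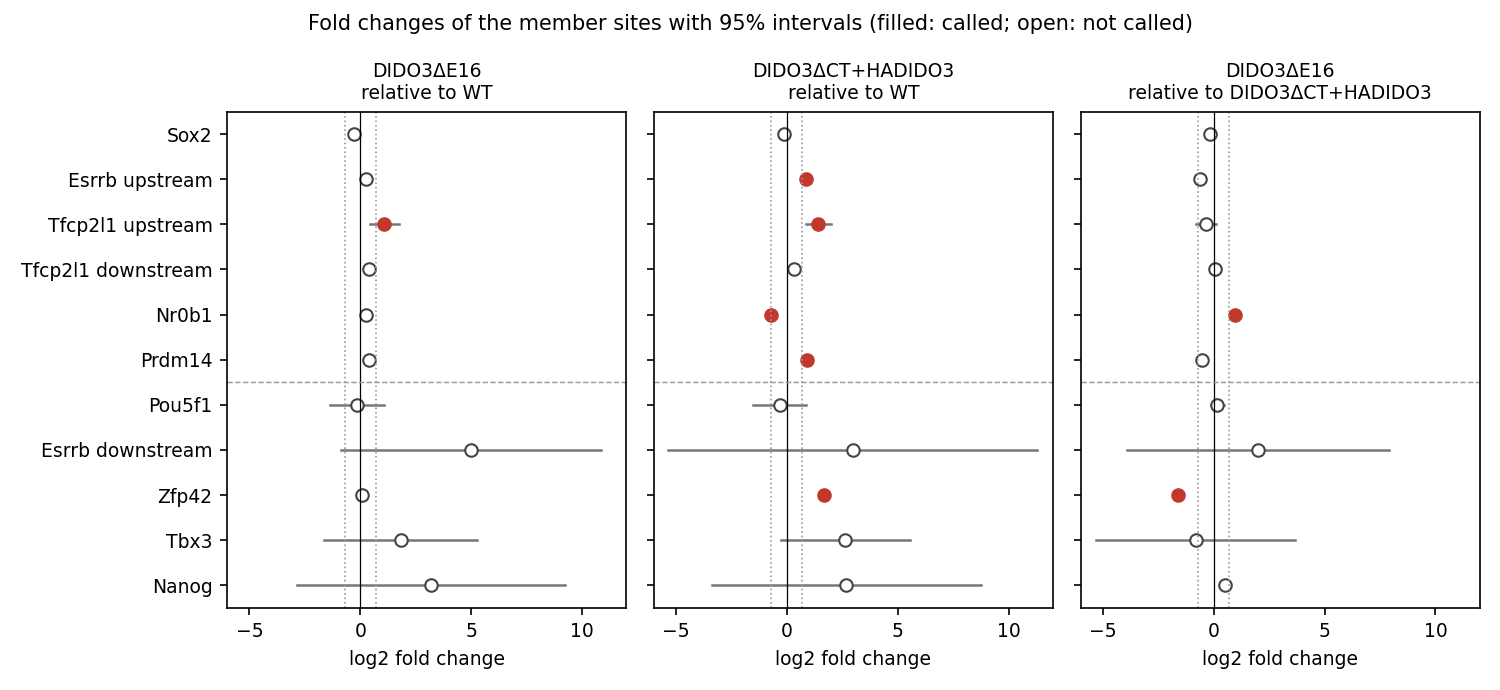
Log2 fold change of each member site (points) with its 95% interval (lines) in the 3 comparisons. Filled points were called, dotted lines stand at 0.7 on either side of 0, and the dashed line parts the 6 sites listed once (above) from the 5 listed repeatedly. Downstream Esrrb, Tbx3 and Nanog have intervals several units wide relative to WT.

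Zfp42 showed the largest change of any called member. Its TPM was 75.7 in WT 1, 75.3 in WT 2-3 and 74.2 in WT 4. In DIDO3ΔE16 it was 81.9, 81.2 and 85.1, and in DIDO3ΔCT+HADIDO3 it was 268, 245 and 249 in replicates 1 to 3. Every DIDO3ΔCT+HADIDO3 library lay more than 150 TPM above every other library, and the DIDO3ΔE16 libraries lay just above the WT libraries. The log2 fold change in DIDO3ΔCT+HADIDO3 relative to WT was 1.65 ± 0.05 (SE, n = 3 libraries each, limma with Benjamini-Hochberg adjusted p = 9.06e-05), which is 3.14-fold. In DIDO3ΔE16 it was 0.08 (95% interval −0.0023 to 0.15, limma adjusted p = 0.124 by Benjamini-Hochberg). Relative to DIDO3ΔCT+HADIDO3 it was −1.60 ± 0.05 in DIDO3ΔE16 (Benjamini-Hochberg adjusted p = 3.87e-05 by limma). With flow cell family in the fit, and so against WT 2-3 alone, the value for DIDO3ΔCT+HADIDO3 was 1.65. This site carries 3 listed features, of which uc009lod.2 held nearly all of the TPM except in DIDO3ΔE16 replicate 1, where it had 58.7 TPM and the others 11.5 and 11.7. With features as listed, the small difference between DIDO3ΔE16 and WT changed sign, to −0.0785.

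Nr0b1 fell in DIDO3ΔCT+HADIDO3 and stood above WT, under the fold threshold, in DIDO3ΔE16. WT libraries had 60.6, 61.4 and 54.6 TPM, DIDO3ΔE16 libraries 73.8, 72.6 and 74.3, and DIDO3ΔCT+HADIDO3 libraries 37.6, 35.4 and 40.5. The genotypes did not overlap, with DIDO3ΔE16 above WT and DIDO3ΔCT+HADIDO3 below it. Against WT, the log2 fold change was −0.74 ± 0.07 in DIDO3ΔCT+HADIDO3 (SE, limma with Benjamini-Hochberg adjusted p = 0.0011) and 0.26 ± 0.05 in DIDO3ΔE16 (0.0136 by the same adjustment in limma), the latter under the fold threshold. DIDO3ΔE16 exceeded DIDO3ΔCT+HADIDO3 by 0.98 ± 0.05 (limma, Benjamini-Hochberg adjusted p = 0.000118). The decrease stood close to the fold threshold: it was −0.64 without scaling, −0.67 after quantile normalization and −0.69 without DIDO3ΔCT+HADIDO3 replicate 2, in each case no longer called, and −0.80 and called with flow cell family in the fit.

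Prdm14, a factor of naive ESC that is also needed to form germ cells, rose in DIDO3ΔCT+HADIDO3. TPM was 29.3, 27.3 and 29.2 in WT, 39.8, 36.5 and 39.9 in DIDO3ΔE16, and 54.7, 56.7 and 60.7 in DIDO3ΔCT+HADIDO3. No 2 genotypes overlapped, and DIDO3ΔE16 lay between the other two. Relative to WT, Prdm14 had a log2 fold change of 0.90 ± 0.05 in DIDO3ΔCT+HADIDO3 (SE, limma with Benjamini-Hochberg adjusted p = 0.000299). In DIDO3ΔE16 it was 0.37 ± 0.06 (limma, Benjamini-Hochberg adjusted p = 0.00794), past the p threshold but not the fold threshold. DIDO3ΔE16 differed from DIDO3ΔCT+HADIDO3 by −0.55 ± 0.05 (Benjamini-Hochberg adjusted p = 0.00089 in limma), again under the fold threshold.

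Tfcp2l1, a target of LIF and STAT3, had nearly all of its TPM at its downstream site. There, TPM was 749.9, 733 and 740.5 in WT, 1032, 1000.2 and 1019 in DIDO3ΔE16, and 1037, 984 and 981 in DIDO3ΔCT+HADIDO3. Both mutants lay above WT in all libraries, and their ranges overlapped each other. Against WT, the log2 fold change was 0.39 ± 0.03 in DIDO3ΔE16 (SE, limma with Benjamini-Hochberg adjusted p = 0.000692) and 0.33 ± 0.04 in DIDO3ΔCT+HADIDO3 (adjusted p = 0.00371, limma, Benjamini-Hochberg), both under the fold threshold. The mutants differed by 0.04 (95% interval −0.07 to 0.15). The upstream site, inside the gene, had 0.643 to 1.12 TPM in WT, 1.71 to 2.43 in DIDO3ΔE16 and 2.36 to 2.80 in DIDO3ΔCT+HADIDO3, at a mean coverage of only 0.377 to 1.83 reads per base. The upstream site shares 117 bases with exons of Gm22094 on the reverse strand, and only 5.70% of its bases lie in exons of Tfcp2l1. The added 2000 bases lie inside the gene, so the values of this site need not stem from transcripts that end at it. This site amounted to 0.0868% to 0.285% of the downstream TPM. Its log2 fold change was 1.09 ± 0.25 in DIDO3ΔE16 (limma with Benjamini-Hochberg adjusted p = 0.0258) and 1.41 ± 0.22 in DIDO3ΔCT+HADIDO3 (0.00676, same test). The former call was lost when any DIDO3ΔE16 library, WT 2-3 or WT 4 was left out, with values from 0.94 to 1.18, with flow cell family in the fit (1.18), after quantile normalization (0.74) and with a pseudocount of 1 (0.66). DIDO3ΔE16 and DIDO3ΔCT+HADIDO3 overlapped there.

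Esrrb, an orphan nuclear receptor of the naive state, could be compared at its upstream site. Only 32.3% of its bases lie in exons of the gene and the added 2000 lie inside the gene. Its values therefore need not follow the mRNA that ends downstream. TPM was 25.5, 21.1 and 21.1 in WT, 28.8, 28.6 and 27.04 in DIDO3ΔE16, and 44.0, 41.7 and 44.5 in DIDO3ΔCT+HADIDO3. WT was lowest and DIDO3ΔCT+HADIDO3 highest with no overlap. The log2 fold change in DIDO3ΔCT+HADIDO3 relative to WT was 0.84 ± 0.08 (SE, limma with Benjamini-Hochberg adjusted p = 0.00151), and 0.93 with flow cell family in the fit. For DIDO3ΔE16 it was 0.26 ± 0.08 (limma, Benjamini-Hochberg adjusted p = 0.0699) and was not called. DIDO3ΔE16 differed from DIDO3ΔCT+HADIDO3 by −0.60 ± 0.05 (adjusted p = 0.000485, limma, Benjamini-Hochberg).

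The downstream Esrrb site carried far more signal but took extreme values. It had 5.18 TPM in WT 1, 1155 in WT 2-3 and 8.78 in WT 4. All DIDO3ΔE16 libraries were high, with 1259.8, 1229.7 and 1271 TPM. DIDO3ΔCT+HADIDO3 had 1903, 9.70 and 1684 TPM in replicates 1, 2 and 3. Thus 3 of the 9 libraries lay under 10 TPM while the rest had 1155 or more, and upstream Esrrb did not follow this split. In the 6 high libraries the downstream site had 54.7 times the TPM of the upstream site in WT 2-3, 42.9 to 47.0 times in DIDO3ΔE16 and 37.9 and 43.2 times in DIDO3ΔCT+HADIDO3. Against WT, the log2 fold change was 4.99 in DIDO3ΔE16 (95% interval −0.86 to 10.8) and 2.96 in DIDO3ΔCT+HADIDO3 (−5.37 to 11.3), neither called. It was 7.45 and called in DIDO3ΔE16 without WT 2-3. With flow cell family in the fit, which sets the mutants against WT 2-3 alone at every site, it was 0.05.

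Nanog was uneven in a single library. WT 1 had 664 TPM and WT 2-3 had 676, but WT 4 had 3.10. DIDO3ΔE16 had 1177, 1054 and 1016 TPM, and DIDO3ΔCT+HADIDO3 had 785, 775 and 769. Each mutant library lay above each WT library, and DIDO3ΔE16 lay above DIDO3ΔCT+HADIDO3. In WT 4 each of the 4 listed Nanog features was at 0.69 to 1.03 TPM, so the low value was not a matter of 1 feature. Fold changes relative to WT were, on the log2 scale, 3.20 in DIDO3ΔE16 (95% interval −2.85 to 9.24) and 2.68 in DIDO3ΔCT+HADIDO3 (−3.37 to 8.73). Without WT 4 these values fell to 0.63 and 0.12, both under the fold threshold. The comparison that uses no WT library gave 0.50 ± 0.07 higher Nanog in DIDO3ΔE16 than in DIDO3ΔCT+HADIDO3 (SE, limma with Benjamini-Hochberg adjusted p = 0.00273), also under that threshold.

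**Figure D3:**
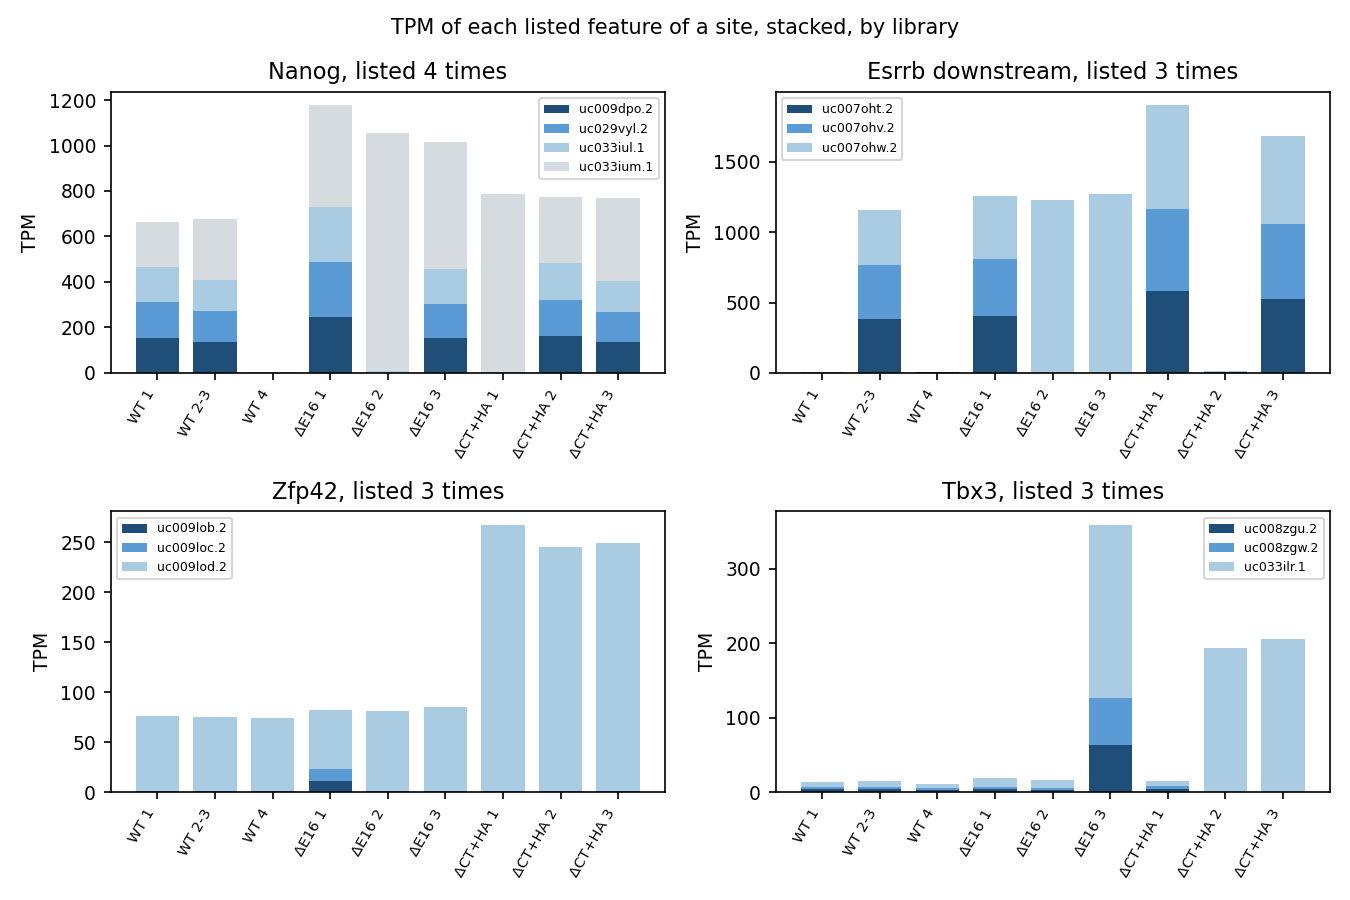
TPM of each listed feature, stacked, at the 4 member sites listed 3 or 4 times, by library. The Nanog features hold different shares of the TPM from library to library while their sum is even within each genotype, except in WT 4, and downstream Esrrb is near 0 in WT 1, WT 4 and DIDO3ΔCT+HADIDO3 replicate 2. Zfp42 is even within each genotype, and Tbx3 is high in 3 libraries.

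Tbx3, a T-box factor that acts downstream of LIF, was at 13.5, 14.3 and 10.6 TPM in WT, at 18.4, 16.02 and 359 in DIDO3ΔE16, and at 15.2, 194 and 206 in DIDO3ΔCT+HADIDO3. The 3 high libraries, DIDO3ΔE16 replicate 3 and DIDO3ΔCT+HADIDO3 replicates 2 and 3, stood more than 10-fold above the rest of their own genotype. Apart from them, the mutant libraries lay just above WT, at 15.2 to 18.4 TPM. Relative to WT it changed by a log2 value of 1.83 in DIDO3ΔE16 (95% interval −1.62 to 5.28) and 2.63 in DIDO3ΔCT+HADIDO3 (−0.28 to 5.53). Neither was called, but the latter was 3.85 and called without DIDO3ΔCT+HADIDO3 replicate 1. Exons of the antisense gene Tbx3os2 overlap 960 bases of this site.

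Sox2 differed little between genotypes. TPM was 485, 459.5 and 473 in WT, 391.8, 386 and 423 in DIDO3ΔE16, and 446, 456 and 479 in DIDO3ΔCT+HADIDO3. DIDO3ΔE16 lay below the other genotypes without overlap, and DIDO3ΔCT+HADIDO3 overlapped WT. Sox2 had log2 fold changes relative to WT of −0.30 ± 0.04 in DIDO3ΔE16 (SE, limma with Benjamini-Hochberg adjusted p = 0.00455) and −0.14 ± 0.03 in DIDO3ΔCT+HADIDO3 (0.0193 by the same test), both far under the fold threshold. Quantile normalization gave 0.01 for the latter. The Sox2 site lies within the noncoding gene Sox2ot on the same strand.

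Pou5f1 did not differ between genotypes beyond the spread of WT. TPM was 168 in WT 1, 180.4 in WT 2-3 and 484 in WT 4, against 258, 235 and 205 in DIDO3ΔE16 and 216, 221 and 193 in DIDO3ΔCT+HADIDO3. WT 4 lay above and the other WT libraries below all mutant libraries. The log2 fold change relative to WT was −0.14 in DIDO3ΔE16 (95% interval −1.36 to 1.07, limma with Benjamini-Hochberg adjusted p = 0.845) and −0.33 in DIDO3ΔCT+HADIDO3 (−1.53 to 0.87, 0.623 by the same test). Leaving out WT 4 turned the direction, to 0.35 and 0.17. Between the mutants the difference was 0.16 (95% interval −0.13 to 0.45). Tcf19, on the reverse strand, has a site that overlaps this one, and no strand option is named in the command that made the values, so reads of the 2 genes cannot be told apart there. Tcf19 had 65.1 TPM in WT 4, 1.65 in DIDO3ΔCT+HADIDO3 replicate 3 and 13.5 to 19.04 in the other 7 libraries.

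The order by mean TPM is given for the steady sites as an order of sites and not of mRNAs. The added 2 kb lowers TPM more where the 3′UTR is short (351 bases at Nr0b1) than where it is long (7734 at downstream Tfcp2l1). In WT it ran from downstream Tfcp2l1 (741 ± 8.33, SD, n = 3) through Sox2 (473 ± 12.8), Zfp42 (75.1 ± 0.775), Nr0b1 (58.9 ± 3.72), Prdm14 (28.6 ± 1.12) and upstream Esrrb (22.6 ± 2.55) to upstream Tfcp2l1 (0.845 ± 0.249), with no overlap between neighbours. DIDO3ΔE16 kept this order. In DIDO3ΔCT+HADIDO3, Nr0b1 (37.8 ± 2.60) came after Prdm14 (57.4 ± 3.06) and upstream Esrrb (43.4 ± 1.51). Among the other sites, Nanog, downstream Esrrb, Sox2 and Pou5f1 overlapped as neighbours in WT, and in DIDO3ΔE16 Nanog overlapped downstream Tfcp2l1.

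Genes whose pattern over the 9 libraries was most like that of a member were taken from 4340 other sites that share no base with any feature and average at least 10 TPM. With 3 genotypes, likeness mostly reflects the genotype means, and no test was made. Pearson's r of log2 values was 0.997 for both Spock2 and Vangl1 with Zfp42, and Vangl1 had 5.62 to 6.04 TPM in WT, 7.01 to 7.24 in DIDO3ΔE16 and 42.4 to 47.2 in DIDO3ΔCT+HADIDO3. For Nr0b1 it was 0.995 with Dgke and 0.994 with Xpot, for Prdm14 0.994 with Thy1 and 0.989 with Gli2, for Sox2 0.986 with Klf6 and 0.979 with Kirrel2, and for downstream Tfcp2l1 0.986 with Vegfc and 0.984 with Rnpepl1. The uneven sites had weaker likeness: 0.922 for Nanog with Rtf2 and 0.887 with Peli1, 0.912 for downstream Esrrb with Ncor1 and 0.906 with Atp6v1b2, 0.844 for Tbx3 with Nipa1, and 0.878 for Pou5f1 with Atp5o and 0.821 with Ppp2r1a. Thy1, which marks fibroblasts as well as other cells, had 18.1 to 19.7 TPM in WT, 29.6 to 33.9 in DIDO3ΔE16 and 52.2 to 56.1 in DIDO3ΔCT+HADIDO3.

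Of 16 other transcription factors of the pluripotency network, each taken at its most abundant site, 1 was called higher and 1 lower in DIDO3ΔE16 relative to WT, and 2 were called lower in DIDO3ΔCT+HADIDO3. Over all tested sites, 10.2% were called higher and 4.94% lower in DIDO3ΔE16, and 10.1% and 7.24% in DIDO3ΔCT+HADIDO3. Directly compared, 13.9% of all sites were called higher and 13.4% lower in DIDO3ΔE16. Foxd3, a forkhead factor that primes enhancers, rose from 11.9 ± 0.922 TPM in WT to 33.6 ± 1.55 in DIDO3ΔE16 (SD, n = 3) and stood at 16.1 ± 0.400 in DIDO3ΔCT+HADIDO3. The former log2 fold change was 1.43 (limma with Benjamini-Hochberg adjusted p = 0.000437). Mycn fell in DIDO3ΔE16 from 103 ± 2.20 to 62.7 ± 2.84 TPM. Mycn had 71.7 ± 1.95 TPM in DIDO3ΔCT+HADIDO3, where its log2 fold change of −0.63 (limma with Benjamini-Hochberg adjusted p = 0.000474) was under the fold threshold. Tcf7l1, a repressor of pluripotency genes, fell in DIDO3ΔCT+HADIDO3 from 88.4 ± 2.85 to 41.6 ± 1.25 TPM, and Klf4 fell from 423 ± 22.9 to 270.4 ± 4.48. In the direct comparison 4 were called higher and 1 lower in DIDO3ΔE16. Etv5 was lower there, at 246 ± 7.16 TPM against 632 ± 25.4 (log2 fold change −1.34), Sall4 was higher (0.82), and so were Tcf7l1 (1.27) and Foxd3 (1.08). Both Etv5 and Sall4 are listed repeatedly and had an SD of 234 and 158 TPM, respectively, in WT. The list medians in these 3 comparisons were 0.03, −0.17 and 0.17, beside −0.01, −0.01 and 0.01 over all sites.

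Targets of OCT4 and SOX2 and the surface or secreted markers of ESC included large decreases. Of 15 genes, 1 was called higher and 4 lower in DIDO3ΔE16, and 6 were called lower in DIDO3ΔCT+HADIDO3, relative to WT. The shares over all tested sites were 10.2% higher and 4.94% lower in DIDO3ΔE16, and 10.1% and 7.24% in DIDO3ΔCT+HADIDO3. Directly compared, 13.9% of all sites were called higher and 13.4% lower in DIDO3ΔE16. The Nodal antagonists Lefty1 and Lefty2 fell in both. Lefty1 fell from 87.0 ± 4.89 TPM in WT (SD, n = 3) to 20.3 ± 2.63 in DIDO3ΔE16 and to 17.5 ± 1.22 in DIDO3ΔCT+HADIDO3. In the same order, Lefty2 had 196 ± 17.4, 33.3 ± 3.15 and 98.0 ± 6.06 TPM. Dppa3, a maternal factor also expressed in ESC and germ cells, had 15.8 ± 1.23, 6.52 ± 1.51 and 3.64 ± 0.253 TPM. The log2 fold changes in DIDO3ΔE16 were −2.62 for Lefty2, −2.16 for Lefty1 and −1.35 for Dppa3. In DIDO3ΔCT+HADIDO3 they were −2.41 for Lefty1, −2.19 for Dppa3, −1.10 for Lefty2 and −0.98 for Fbxo15. Tcl1, called lower in DIDO3ΔE16 (−5.01), shares bases with other sites and varied with an SD of 63.8 TPM around a WT mean of 43.5. In the direct comparison 6 genes were called higher and 2 lower in DIDO3ΔE16, and the largest differences were at Tcl1 (−8.62), Lefty2 (−1.54), Fbxo15 (1.50) and Tet2 (1.24). The list medians were −0.08, −0.47 and 0.54.

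Regulators of primitive endoderm and of trophoblast, the lineages that OCT4 and NANOG hold back, are given separately where they were called. Of 15 tested genes of both lineages, 2 were called higher and 6 lower in DIDO3ΔE16, and 8 were called lower in DIDO3ΔCT+HADIDO3, relative to WT. Among all tested sites, 10.2% were called higher and 4.94% lower in DIDO3ΔE16, and 10.1% and 7.24% in DIDO3ΔCT+HADIDO3. Between the mutants, 13.9% of all sites were called higher and 13.4% lower in DIDO3ΔE16. The primitive endoderm genes Gata4, Gata6, Sox7 and Pdgfra fell in both mutants, and Sox17 and Foxa2 fell in DIDO3ΔCT+HADIDO3. Of the trophoblast genes, Eomes and Gata3 rose and Tfap2c fell in DIDO3ΔE16, whereas Eomes fell in DIDO3ΔCT+HADIDO3. Eomes, a T-box factor, stood at 29.9 ± 0.560 TPM (SD, n = 3) for WT libraries, 57.4 ± 3.01 for DIDO3ΔE16 and 19.7 ± 1.77 for DIDO3ΔCT+HADIDO3, with log2 fold changes of 0.88 and −0.70 relative to WT. Gata6, the regulator that opposes NANOG, went from 12.9 ± 0.686 TPM in WT (SD, n = 3) to 4.66 ± 1.37 in DIDO3ΔE16 and to 6.98 ± 0.656 in DIDO3ΔCT+HADIDO3. In this order, Gata4 had 33.5 ± 2.51, 13.5 ± 1.42 and 11.4 ± 0.606 TPM. Its log2 fold change in DIDO3ΔCT+HADIDO3 was −1.65, after −2.87 for Pdgfra, −2.63 for Foxa2 and −2.33 for Sox17. In DIDO3ΔE16 the largest were 1.77 for Gata3, −1.56 for Pdgfra, −1.55 for Gata6 and −1.45 for Tfap2c. Directly compared, 6 of 16 were called higher and 2 lower in DIDO3ΔE16, with 2.05 for Gata3, 1.93 for Cdx2, 1.58 for Sox17 and 1.56 for Eomes. Gata3 and Cdx2 were low in all libraries, with means of at most 2.72 and 1.36 TPM in any genotype. The list medians were −0.73, −1.12 and 0.36.

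**Figure D4:**
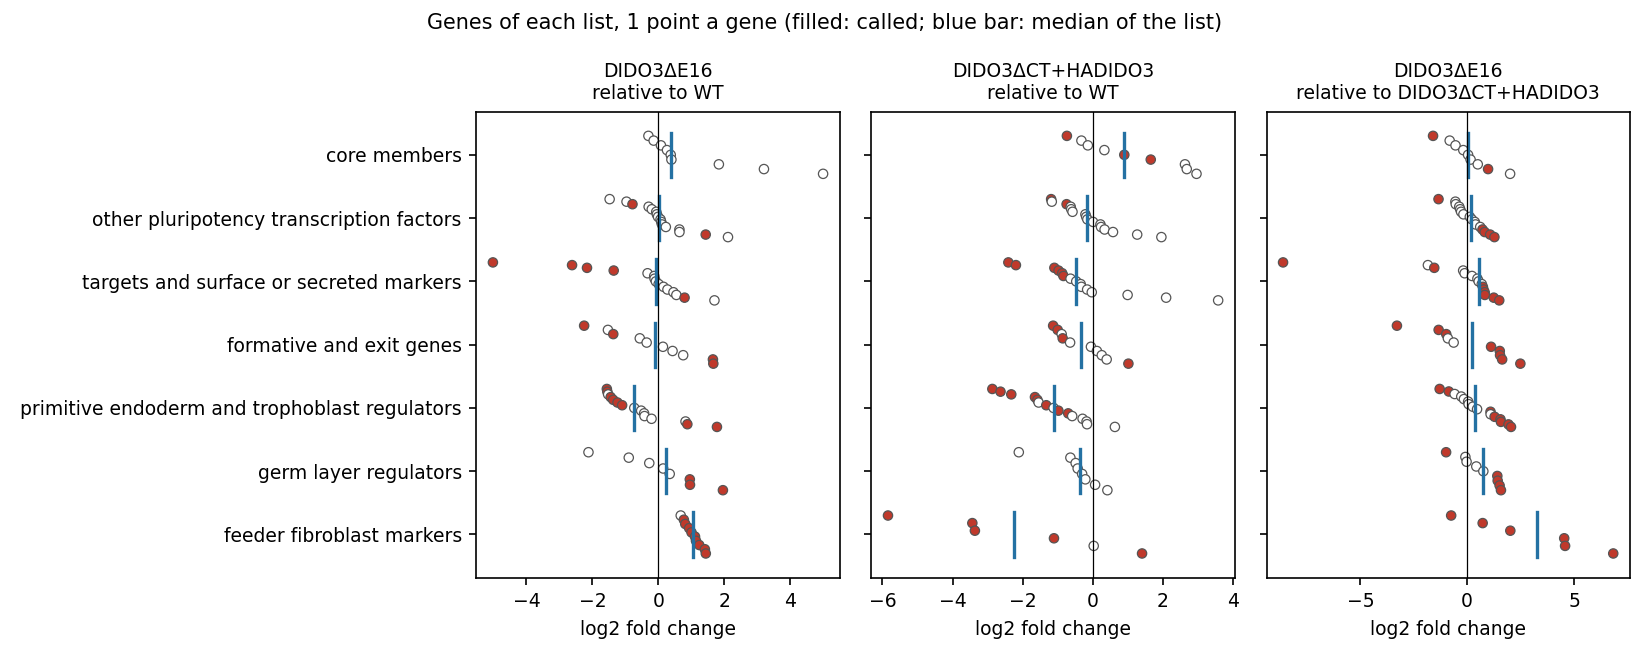
Log2 fold change of each gene of 7 lists at its most abundant site, in the 3 comparisons, with filled points for called genes and a blue bar at the median of the list. All called feeder fibroblast markers lie above 0 in DIDO3ΔE16 relative to WT, and all called primitive endoderm and trophoblast regulators lie below 0 in DIDO3ΔCT+HADIDO3.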

How the data were processed

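The members and gene lists were chosen with earlier results of these data known. The TPM values were made by the authors with StringTie (1.3.3) as deposited, from reads aligned to mm10 with BWA (0.7.15), on UCSC 3′UTRs with 2 kb added, and were not scaled between libraries. The deposited coverage, a signal per base, served for depth only. The authors tested with edgeR. No read counts were used here, so limma (3.58.1, R 4.3.3) was applied to log2 TPM. Columns of the deposited tables outside the libraries of this series numbered 0.

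From the files, features of the same coordinates and strand were summed to sites, and 42255 of 43031 features were named from GENCODE release M21. For each comparison, sites above 0 TPM in every library were kept, scaling factors came from the mean log2 ratio after trimming 30% of sites from either end, a pseudocount of 0.1 entered the logarithm, and p-values (moderated, 2-sided, trend and robust) were adjusted by Benjamini-Hochberg. Tables were made in Python (3.11.15) with numpy (2.4.6) and pandas (2.3.3).

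On simulated data for DIDO3ΔE16 and WT (21063 sites, 200 changed), 40.7% of log2 changes of 1 and 62% of 2 were recovered, with a mean of 2 false calls. In the data 3191 sites were called, and the adjusted p depends on how many sites change. The recovered shares therefore cannot be carried over, and how many real changes go uncalled was not tested. Named are all member sites, the called genes of each list with the largest changes (up to 4 per list and comparison), the 2 genes most alike to each member (1 is not reported here), and overlapping neighbours. The alternatives were pseudocounts, filters, scalings, 1 fit of all libraries, flow cell family, features as listed, sums over genes, omission of single libraries, and a block for the replicate number. Sites listed once were tested alone as an alternative chosen after seeing the data.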

Additional observations from a re-analysis of the deposited data

Results flagged for a closer look

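The genotypes differed in the direct test of the mutants at 2 member sites. Zfp42 was lower in DIDO3ΔE16 than in DIDO3ΔCT+HADIDO3, with a log2 fold change of −1.60 (limma with Benjamini-Hochberg adjusted p = 3.87e-05), and all 3 libraries of one genotype lay below all 3 of the other. Nr0b1 was higher in DIDO3ΔE16 by 0.98 (limma, Benjamini-Hochberg adjusted p = 0.000118), also without overlap, as at 61.6% of all tested sites. Both calls were kept under every alternative that could test the site, with log2 fold changes of −1.76 to −1.55 for Zfp42 and 0.92 to 1.01 for Nr0b1. Feeder fibroblast, primitive endoderm and trophoblast markers differed between the same libraries, and their part was not tested.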

How the results depend on the processing

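Of 562 values of member sites under an alternative, 531 kept their direction and whether they were called, though not always their size or the side of either threshold taken alone, 17 lost a call, 2 gained one and 12 changed direction. Calls among member sites in DIDO3ΔE16 relative to WT numbered 1. They numbered 0 with a pseudocount of 1, quantile normalization, sums over genes or the replicate block, and 0 to 1 when a library was left out. Without WT 2-3 the call was downstream Esrrb instead of upstream Tfcp2l1. In DIDO3ΔCT+HADIDO3 the calls numbered 5, and 3 of 9 genes with sums over genes, in which the upstream sites are absorbed. The direct comparison gave 2, and 1 among the 6 sites listed once, where Zfp42 is not included. Over all sites, restriction to sites listed once left 2080 calls for DIDO3ΔE16 and WT and 3620 between the mutants, with fewer sites tested.

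The replicate block left 0 calls in limma in both comparisons with WT, over all sites and among members, with 1 residual degree of freedom, although 6198 and 6915 sites had an unadjusted p under 0.05, and 5183 calls between the mutants. Deviations of same-numbered libraries from their genotype means correlated at 0.0033 to 0.034, and those of differently numbered libraries at −0.0435 to 0.0281. Such low values do not decide whether the numbers pair the libraries, and WT 4 has no same-numbered mutant library.

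Directions changed at sites listed repeatedly or near 0. Pou5f1 in DIDO3ΔE16 relative to WT was 0.29 with flow cell family, 0.30 with features as listed, 0.45 with the block and −0.43 to 0.35 when a library was left out (0.35 without WT 4). In DIDO3ΔCT+HADIDO3 it was 0.11 with flow cell family, 0.25 with the block and −0.61 to 0.17 when a library was left out (0.17 without WT 4). Downstream Esrrb in DIDO3ΔCT+HADIDO3 was −1.98 with flow cell family, and between the mutants −0.50 to 3.31 when a library was left out (−0.50 without DIDO3ΔCT+HADIDO3 replicate 2). Zfp42 in DIDO3ΔE16 was −0.0785 with features as listed, Sox2 in DIDO3ΔCT+HADIDO3 was 0.00776 and downstream Tfcp2l1 between the mutants −0.0606 after quantile normalization. The cause was not tested. Read depth in counts is unknown, so no counting interval is given.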

Other observations

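Genes of the formative state and of the exit from naive pluripotency moved in both directions. Relative to WT, 2 of 10 were called higher and 2 lower in DIDO3ΔE16, and 1 higher and 3 lower in DIDO3ΔCT+HADIDO3. Over all tested sites, 10.2% were called higher and 4.94% lower in DIDO3ΔE16, and 10.1% and 7.24% in DIDO3ΔCT+HADIDO3. Directly compared, 13.9% of all sites were called higher and 13.4% lower in DIDO3ΔE16. Otx2, a driver of the formative state, stood at 9.42 ± 0.842 TPM in WT (SD, n = 3), at 1.997 ± 0.316 in DIDO3ΔE16 and at 20.5 ± 1.01 in DIDO3ΔCT+HADIDO3, and was called in opposite directions (log2 fold changes of −2.25 and 1.01). In the same order Id3, an inhibitor of helix-loop-helix factors induced by BMP, had 63.8 ± 2.30, 209 ± 3.97 and 37.7 ± 1.27 TPM, also called in opposite directions (1.65 and −0.86). Sox3 (1.66) and Lef1 (−1.37) were the others called in DIDO3ΔE16, and Dnmt3a (−1.13) and Pou3f1 (−1.002) in DIDO3ΔCT+HADIDO3. Between the mutants 5 were called higher and 3 lower in DIDO3ΔE16, led by Otx2 (−3.29), Id3 (2.49), Fgf5 (1.64) and Dnmt3a (1.54). Fgf5 was near the floor, at 0.056 to 0.669 TPM over all libraries.

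Relative to WT, 3 of 8 tested germ layer regulators were called higher in DIDO3ΔE16 and none lower. In DIDO3ΔCT+HADIDO3 limma called 0 of the 8, of which 2 had an unadjusted p under 0.05. The shares over all tested sites were 10.2% higher and 4.94% lower in DIDO3ΔE16, and 10.1% and 7.24% in DIDO3ΔCT+HADIDO3. Directly compared, 13.9% of all sites were called higher and 13.4% lower in DIDO3ΔE16. Sox1, a neural gene, rose from 8.43 ± 0.879 to 34.3 ± 1.46 TPM (SD, n = 3) in DIDO3ΔE16 (log2 fold change 1.95). T (0.96) and Foxc1 (0.95) rose from lower levels, with means of 2.17 and 0.487 TPM in WT. Between the mutants 4 of 9 were called higher and 1 lower in DIDO3ΔE16, with 1.58 for Foxc1, 1.52 for Sox1, 1.43 for T and 1.41 for Neurog2, the last at 0.775 TPM or less in every library. Of 10 tested feeder fibroblast markers, 9 were called higher in DIDO3ΔE16, with 1.43 for Col3a1, 1.41 for Twist2, 1.24 for Col1a1 and 1.14 for Prrx1. Col3a1 and Twist2 were low, with means of 0.815 and 0.298 TPM in WT, and 2.44 and 1.001 in DIDO3ΔE16. Of 6 tested in DIDO3ΔCT+HADIDO3, 4 were called lower, among them Col1a2 (−5.84), S100a4 (−3.44) and Col1a1 (−3.36), and Thy1 higher (1.40). Col3a1, Postn, Twist2 and Prrx1, above 0 in all WT libraries, were not tested there because they were at 0 in 1 or more DIDO3ΔCT+HADIDO3 libraries, where their highest value was 0.081 TPM. The direct comparison called 5 higher and 1 lower in DIDO3ΔE16, led by Col1a2 (6.84).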
